A study of Mus musculus with 14 samples.

Results

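The ankyrin repeat and SOCS box (Asb) genes were followed in mouse tibialis anterior muscle treated with follistatin. The 10 genes Asb4, Asb5, Asb8, Asb10, Asb11, Asb12, Asb13, Asb14, Asb15 and Asb16 were taken by symbol, out of 18 Asb genes and 24359 genes in all, and Asb2 was not among them. Asb proteins carry ankyrin repeats, which hold a substrate, and a SOCS box, which binds elongin B and C and the scaffold Cullin-5. Together with the RING protein Rnf7 they form ubiquitin ligases, so that each family member gives the ligase another choice of substrate. Several members are transcribed mainly in striated muscle, and the family has been studied there for its part in muscle growth and protein turnover.

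Follistatin is a secreted inhibitor that traps myostatin and activins, which restrain muscle growth. Polyadenylated RNA of the tibialis anterior, a muscle of the shin, was sequenced from C57Bl/6 mice. The follistatin-treated groups held 4 libraries at day 3, 2 at day 7 and 2 at day 14, and the control groups held 3 at day 3, 2 at day 7 and 1 at day 14. Days 7 and 14 were joined as the chronic set of 4 follistatin and 3 control libraries, as the study does. The way follistatin was given, what controls received, and the age and sex of the mice are not given in the sources used here. In the authors' deposited comparisons the controls carry the label MCS, which is not spelled out there. Nor is it stated whether replicates came from separate mice, so a p-value here rests on the variation among libraries, which may be technical. Levels are the authors' FPKM, that is, fragment numbers divided by transcript length and by a measure of library size.

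The tissue matched its label: 6 of 8 skeletal muscle markers had an estimate at day 3, and these lay between 2917 and 19818 FPKM in every library. In the chronic set all 8 were among the 31 genes marked HIDATA in the authors' deposited table, which means too many reads for an estimate. The FPKM of a library summed to 364513 to 433552 in chronic follistatin libraries and to 485755 to 510584 in chronic controls. Of 14 genes of fast muscle fibres, 8 had no level in any chronic follistatin library and 4 had none in any chronic control. The chronic sums therefore do not cover the same genes in both arms, and the part of this in their gap was not tested. At day 3 the sums were 486377 to 515812 in follistatin libraries and 508717 to 532859 in controls. Read numbers are not given in the sources used here. Steps between low values put the depth of day 3 libraries at 0.685 to 1.27 of control replicate 1, and gave no clear value in the chronic set. All 10 genes had a mean of at least 1 FPKM in both sets and entered every test.

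All 10 genes are protein coding and lie at separate positions of the mm10 genome, by the GENCODE M21 annotation. Asb15 lies on chromosome 6 (24528144 to 24573164, plus strand) and Asb4 on the same chromosome (5383386 to 5433022, plus strand). Asb11 (164436994 to 164459170, plus strand) and Asb12 (95470201 to 95557987, minus strand) lie on chromosome X. Asb5 lies on chromosome 8 (54529580 to 54587842, plus strand), Asb14 on chromosome 14 (26894557 to 26915258, plus strand) and Asb13 on chromosome 13 (3634032 to 3653822, plus strand). Asb10 lies on chromosome 5 (24532697 to 24540978, minus strand), Asb16 on chromosome 11 (102268743 to 102279462, plus strand) and Asb8 on chromosome 15 (98134637 to 98165625, minus strand). Of the 10, Asb5 alone shared exon bases with another gene, 75 of 1843 with Spcs3 on the opposite strand, and the strand setting of the libraries is not stated.

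Promoters of 4 genes are shown to set the gene with the largest fall (Asb15) and the gene that rose at day 3 (Asb5) beside the pair whose promoters held a MEF2 site (Asb12 and Asb16). MEF2 factors are activators of muscle genes. Each runs from 250 bases before to 50 bases after a RefSeq start on GRCm38.p6, 5′ to 3′, and capitals mark every match to a motif searched on both strands.
Asb15, chr6:24527894-24528193, plus strand: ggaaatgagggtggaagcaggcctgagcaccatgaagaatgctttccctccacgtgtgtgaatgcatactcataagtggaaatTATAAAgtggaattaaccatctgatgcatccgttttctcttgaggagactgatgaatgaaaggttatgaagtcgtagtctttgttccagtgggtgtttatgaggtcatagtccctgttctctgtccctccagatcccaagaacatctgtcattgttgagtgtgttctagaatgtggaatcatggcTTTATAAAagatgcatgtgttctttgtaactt
Asb5, chr8:54550081-54550380, plus strand: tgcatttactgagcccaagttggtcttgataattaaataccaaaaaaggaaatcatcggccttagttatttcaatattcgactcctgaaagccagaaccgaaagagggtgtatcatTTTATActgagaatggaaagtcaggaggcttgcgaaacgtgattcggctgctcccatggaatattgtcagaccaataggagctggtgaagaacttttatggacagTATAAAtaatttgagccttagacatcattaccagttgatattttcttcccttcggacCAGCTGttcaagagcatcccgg
Asb12, chrX:95478080-95478379, minus strand: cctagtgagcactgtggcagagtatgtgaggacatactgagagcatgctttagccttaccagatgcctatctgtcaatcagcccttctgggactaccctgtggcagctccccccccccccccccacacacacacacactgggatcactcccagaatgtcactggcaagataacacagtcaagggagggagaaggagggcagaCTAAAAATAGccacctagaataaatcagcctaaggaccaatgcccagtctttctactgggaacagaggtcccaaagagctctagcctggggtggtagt
Asb16, chr11:102268501-102268800, plus strand: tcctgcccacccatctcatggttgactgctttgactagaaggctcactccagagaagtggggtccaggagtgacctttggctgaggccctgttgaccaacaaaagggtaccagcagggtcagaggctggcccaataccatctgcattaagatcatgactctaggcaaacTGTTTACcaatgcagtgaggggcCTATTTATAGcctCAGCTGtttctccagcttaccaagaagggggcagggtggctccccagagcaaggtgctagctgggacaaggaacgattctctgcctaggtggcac

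The motifs were the E-box CAGCTG, the MEF2 site, the FoxO site GTAAACA, the Smad box GTCTAGAC and the TATA box TATAAA. The 10 genes had 14 windows, and each count below is the same by gene and by window. Asb5 has further RefSeq starts, whose windows are not printed and held no match. A MEF2 site stood in the promoters of 2 of the 10 genes, 48 bases before the start of Asb12 and 58 bases before that of Asb16, and in 0.557% of all 32851 promoters. In Asb16 this site overlapped a TATA box on the minus strand, with an E-box 45 bases and a FoxO site 81 bases before the start. TATA boxes were found for 4 genes (Asb5, Asb14, Asb15 and Asb16) and in 13.6% of all promoters. Those of Asb15 began 167 bases before and 18 and 20 bases after the start. The E-box was found for Asb5 and Asb16 (16.3% of all), the FoxO site for Asb16 (3.65%) and the Smad box for 0 of the 10 (0.213%). These letters describe the printed windows and were not tested against the values.

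Levels can be compared between genes here because FPKM is per length. In controls of day 3, Asb5 stood highest at 161 ± 6.10 FPKM (mean ± SD, n = 3). Asb11 (85.7 ± 12.4) and Asb14 (72.9 ± 3.27) followed with overlapping ranges. Next came Asb8 (60.2 ± 3.31) and Asb10 (53.5 ± 1.99), which did not overlap with their neighbours. Asb16 (35.9 ± 3.22) and Asb12 (30.6 ± 2.06) overlapped with each other. The lowest were Asb15 (25.1 ± 1.92), Asb13 (10.1 ± 0.680) and Asb4 (4.87 ± 0.707 FPKM), each apart from the next.

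**Figure D1:**
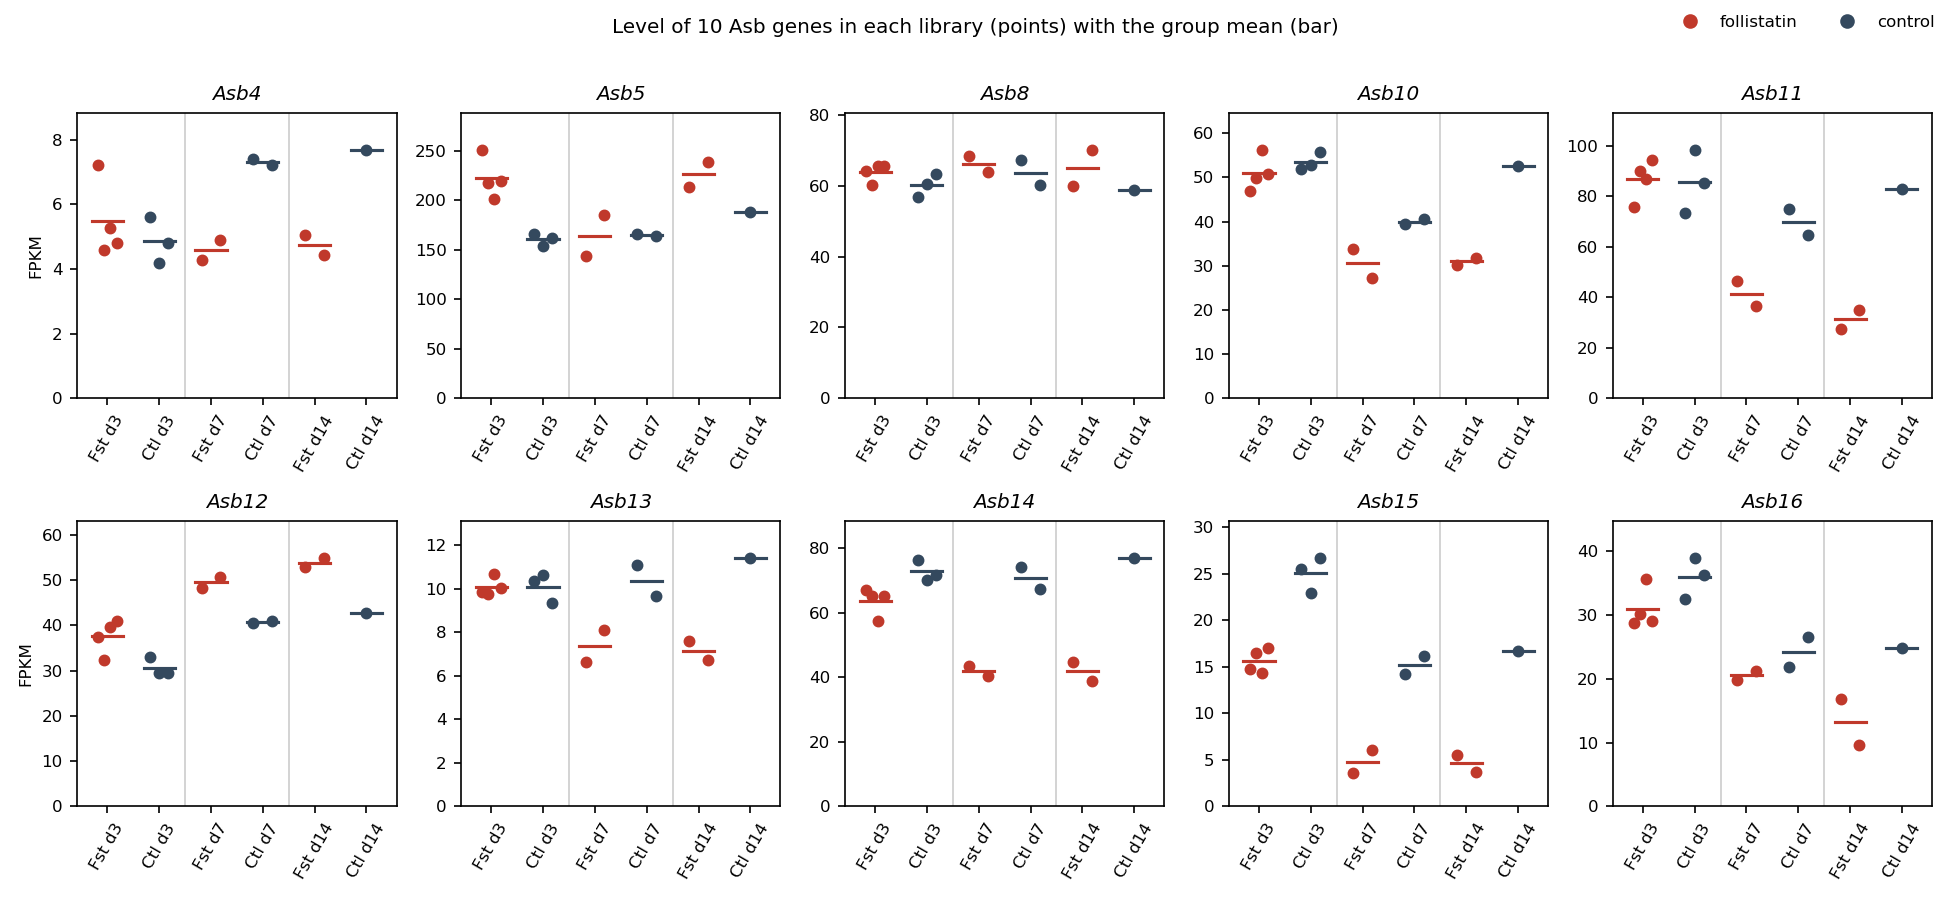
FPKM (y axis, from 0, a scale for each gene) of the 10 Asb genes in each of the 14 libraries. Points are libraries, bars are group means, red is follistatin and dark blue is control at days 3, 7 and 14; the follistatin points of Asb15 lie below the control points at every day.

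At day 3, Asb15 was lower and Asb5 higher in muscles treated with follistatin than in controls, while 8 of the 10 genes did not pass the test. Asb15, which alters myoblast growth and muscle mass when overexpressed in rodents, read 14.8, 16.5, 14.3 and 17.0 FPKM in the follistatin libraries, against 25.6, 22.9 and 26.7 FPKM in controls. Every follistatin library lay below every control, and the mean fell by 37.6%. The log2 fold change, on the scale of log2(FPKM + 1), was -0.65 (SE 0.09, adjusted p = 0.0133 by limma). Asb5, first described in growing arteries of rabbits, read 251, 217, 201 and 219 FPKM with follistatin, against 166, 154 and 162 FPKM in controls. Its groups did not overlap, with a mean 1.38-fold higher and a log2 fold change of 0.46 (SE 0.08, adjusted p = 0.0319 by limma). The 10 genes thus held 1 higher and 1 lower call, while over all 11268 genes of the day 3 test 1.49% were called (0.923% higher, 0.568% lower).

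Leaving out single libraries ended both calls of day 3. Asb15 had an adjusted p = 0.0753 by limma without control replicate 1 and 0.0615 without control replicate 3. Asb5 had adjusted p = 0.112, 0.137 and 0.104 by limma without control replicates 1, 2 and 3, and 0.0834 and 0.0729 without follistatin replicates 2 and 4. Its call also ended with quantile normalization (0.0915), without a filter on low values (0.0591) and with all 14 libraries in 1 fit (0.163). Its log2 fold change stayed between 0.40 and 0.51 in all alternatives, and that of Asb15 between -0.71 and -0.60.

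The other 8 genes differed less at day 3. Asb14 read 67.1, 65.3, 57.5 and 65.1 FPKM with follistatin, against 76.5, 70.3 and 71.8 FPKM in controls. All its follistatin libraries were below all controls, but the test was not passed (log2 fold change -0.19, adjusted p = 0.268 by limma). Asb12 read 37.5, 32.3, 39.7 and 40.9 FPKM with follistatin, against 33.0, 29.4 and 29.5 FPKM in controls (0.28, adjusted p = 0.211 by limma). Its follistatin replicate 2 lay within the range of the controls. Asb16 read 28.7, 30.2, 35.7 and 29.1 FPKM with follistatin, against 32.5, 38.9 and 36.3 FPKM in controls (-0.21, adjusted p = 0.361 by limma).

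Asb10, linked to glaucoma in humans, read 46.9, 49.8, 56.2 and 50.8 FPKM with follistatin at day 3, against 52.0, 52.8 and 55.8 FPKM in controls. The groups overlapped, and the 95% confidence interval of the log2 fold change ran from -0.25 to 0.10. Asb11, whose zebrafish relative degrades a Notch ligand, read 75.8, 90.0, 86.7 and 94.4 FPKM with follistatin, against 73.5, 98.2 and 85.4 FPKM in controls (interval -0.23 to 0.28). Asb8 read 64.0, 60.1, 65.6 and 65.4 FPKM with follistatin, against 56.8, 60.5 and 63.4 FPKM in controls (interval -0.07 to 0.24). These genes, too, had overlapping groups.

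Asb13, which targets the transcription factor SNAI2 in human cells, read 9.85, 9.77, 10.7 and 10.1 FPKM with follistatin at day 3, against 10.3, 10.6 and 9.34 FPKM in controls (interval -0.18 to 0.18). Asb4, studied in blood vessel and placenta development in mice, read 7.20, 4.59, 5.27 and 4.81 FPKM with follistatin, against 5.61, 4.20 and 4.79 FPKM in controls. Its interval was the widest of the 10, from -0.22 to 0.48, and follistatin replicate 1 alone lay above all controls. The groups of 3 of the 10 genes did not overlap at day 3, 1 higher and 2 lower, against 15.1% of all genes tested (8.31% higher and 6.8% lower). In the authors' deposited table, Cuffdiff called Asb5 (q = 0.00191) and Asb15 (q = 0.00191) at day 3 and none of the other 8, with 6.25% of its 9625 tested genes called.

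In the chronic set, 5 of the 10 genes fell with follistatin, and 0 rose. They were Asb15, Asb11, Asb14, Asb4 and Asb13. Of all 11047 genes tested, limma called 5.5%, 2.24% higher and 3.27% lower. The median log2 fold change of the 10 was -0.53, and that of all genes tested -0.09. FPKM is relative to the size of the library, so such a fall is a fall relative to other RNA. Less RNA per cell, fewer cells that hold it and more of other RNA cannot be told apart with these data.

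Asb15 had the largest fall of the 10. It read 3.55 and 6.02 FPKM with follistatin at day 7 and 5.54 and 3.68 FPKM at day 14, against 14.3 and 16.1 FPKM in controls of day 7 and 16.7 FPKM in the control of day 14. The highest follistatin library was below the lowest control at each day, and the mean over both days fell by 70.1%. On the log2 scale this was -1.58 (SE 0.18, adjusted p = 0.00655 by limma), and the test was passed with any 1 library left out (adjusted p from 0.0123 to 0.0408 by limma).

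Asb11 read 46.3 and 36.5 FPKM with follistatin at day 7 and 27.6 and 35.03 FPKM at day 14, against 75.0 and 64.6 FPKM in controls of day 7 and 82.8 FPKM in the control of day 14. The groups were far apart, with a mean 2.04-fold lower and a log2 fold change of -1.02 (SE 0.18, adjusted p = 0.0234 by limma). Asb14 read 43.6 and 40.5 FPKM with follistatin at day 7 and 44.9 and 38.8 FPKM at day 14, against 74.2 and 67.3 FPKM in controls of day 7 and 76.9 FPKM in that of day 14. All 4 follistatin libraries lay within a narrow band well under the controls, and the mean fell by 42.4% (-0.78, SE 0.10, adjusted p = 0.0109 by limma).

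Asb4 and Asb13, the lowest of the 10 in chronic controls, fell less. Asb4 read 4.28 and 4.90 FPKM with follistatin at day 7 and 5.04 and 4.44 FPKM at day 14, against 7.40 and 7.22 FPKM in controls of day 7 and 7.67 FPKM in that of day 14. The mean fell by 37.2% (-0.58, SE 0.09, adjusted p = 0.0166 by limma). Asb13 read 6.62 and 8.10 FPKM with follistatin at day 7 and 7.60 and 6.74 FPKM at day 14, against 11.1 and 9.66 FPKM in controls of day 7 and 11.4 FPKM in that of day 14. Both genes had groups that did not overlap, and Asb13 fell by 32.3% (-0.51, SE 0.11, adjusted p = 0.0389 by limma).

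With only 3 chronic controls, 4 of these 5 calls rested on single libraries. Without control day 7 replicate 1, Asb4, Asb11, Asb13 and Asb14 had adjusted p = 0.106, 0.125, 0.195 and 0.0878 by limma. That control had 16158 genes above 0 FPKM, against 19383 to 20283 in the other chronic libraries. Over all genes, 43 were called without it, 145 without control day 7 replicate 2 and 62 without the control of day 14, against 608. Without control day 7 replicate 2, Asb4, Asb11 and Asb13 had 0.0746, 0.0573 and 0.0912, and without the control of day 14 Asb4, Asb11, Asb13 and Asb14 had 0.0949, 0.107, 0.158 and 0.066. Asb13 also missed the threshold without follistatin day 14 replicate 1 (0.0715) or 2 (0.0634), with median ratio rescaling (0.0567), with day as a covariate (0.0528) and without a filter (0.0746). Day 7 libraries alone, 2 against 2, gave log2 fold changes of -1.52 for Asb15, -0.74 for Asb11, -0.74 for Asb14, -0.57 for Asb4 and -0.45 for Asb13, with adjusted p from 0.14 to 0.318 by limma.

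Asb10 and Asb16 also read lower in the chronic set without passing. Asb10 had 33.8 and 27.3 FPKM with follistatin at day 7 and 30.1 and 31.9 FPKM at day 14, against 39.3 and 40.5 FPKM in controls of day 7 and 52.5 FPKM in that of day 14. Its groups did not overlap (-0.50, adjusted p = 0.0695 by limma). Asb10 was called in 1 of 20 alternatives, with all 14 libraries in 1 fit (adjusted p = 0.00727 by limma). That fit called 2122 of 10643 genes, against 608 of 11047 in the main fit. Asb16 had 19.8 and 21.2 FPKM with follistatin at day 7 and 16.8 and 9.69 FPKM at day 14, against 21.9 and 26.5 FPKM in controls of day 7 and 24.8 FPKM in that of day 14. Follistatin day 14 replicate 2 was the lowest, the groups did not overlap, and the interval of the log2 fold change ran from -1.12 to 0.01 (adjusted p = 0.182 by limma).

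Asb12, Asb8 and Asb5 did not share the fall. Asb12 had 48.3 and 50.7 FPKM with follistatin at day 7 and 52.9 and 54.9 FPKM at day 14, against 40.6 and 41.1 FPKM in controls of day 7 and 42.7 FPKM in that of day 14. It was the 1 gene of the 10 whose follistatin libraries all lay above the controls (0.31, adjusted p = 0.0876 by limma). Asb12, too, was called in 1 of 20 alternatives, with all 14 libraries in 1 fit (adjusted p = 0.0298 by limma), where 2122 of 10643 genes were called. Asb8 had 68.4 and 63.8 FPKM with follistatin at day 7 and 59.9 and 70.0 FPKM at day 14, against 67.1 and 60.3 FPKM in controls of day 7 and 58.9 FPKM in that of day 14. The groups overlapped, and the interval ran from -0.17 to 0.32. Asb5 had 143 and 185 FPKM with follistatin at day 7 and 214 and 238 FPKM at day 14, against 166 and 164 FPKM in controls of day 7 and 188 FPKM in that of day 14. Both follistatin libraries of day 14 were above the 3 controls, those of day 7 lay on either side of the day 7 controls, and the interval ran from -0.26 to 0.56.

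**Figure D2:**
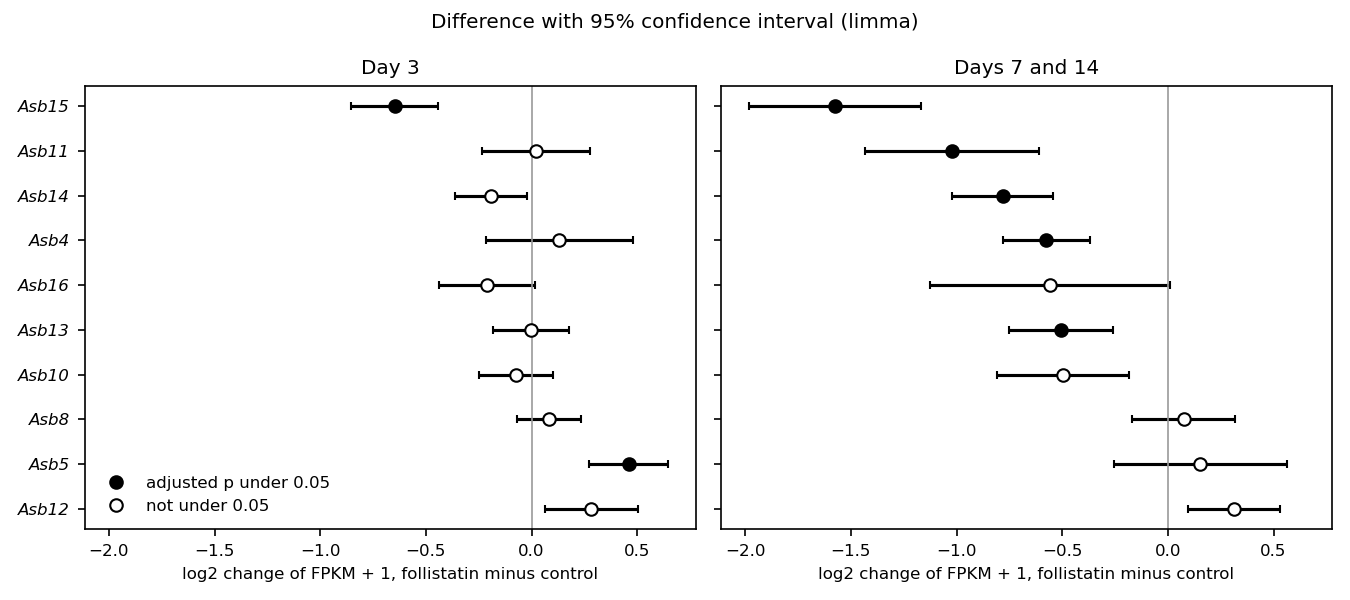
Log2 change of FPKM + 1, follistatin minus control (x axis), of the 10 Asb genes (rows) at day 3 (left) and in the chronic set (right), with 95% confidence intervals. Filled points passed limma's adjusted p under 0.05; at day 3 these are Asb15 (-0.65) and Asb5 (0.46), and in the chronic set Asb15, Asb11, Asb14, Asb4 and Asb13, all to the left of 0.

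The groups of 8 of the 10 genes did not overlap in the chronic set, 7 lower and 1 higher, against 30.4% of all genes tested (21.5% lower and 8.96% higher). In the authors' deposited table, Cuffdiff called the same 5 genes and also Asb10 (q = 0.0211) and Asb16 (q = 0.0285), all lower, with 17.8% of its 12664 tested genes called. Rescaling changed the balance over all genes: 40.6% of the genes called were higher as deposited, 57.5% with median ratio rescaling and 58.7% with quantile normalization. All 5 falls kept their direction under both, and quantile normalization kept all 5 calls.

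Whether the chronic effect differed from the day 3 effect was tested by an interaction term in 1 fit of the 14 libraries. The difference was below 0 in 9 of the 10 genes, of which Asb8 was above 0 with median ratio rescaling or quantile normalization. By limma 0 of the 10 passed, and 6 had an unadjusted p under 0.05, as did 1627 of all 10643 genes compared. Over the 10643 genes of this comparison 0.0752% were called, 0.0564% higher and 0.0188% lower. Asb11 had the largest difference at -1.05 (95% interval -1.51 to -0.58, adjusted p = 0.12 by limma), with -1.17 and adjusted p = 0.0289 without follistatin day 7 replicate 1. Asb15 followed at -0.93 (interval -1.37 to -0.49, adjusted p = 0.142), with -1.04 and adjusted p = 0.0487 by limma without follistatin day 7 replicate 2. Then came Asb4 at -0.71, Asb14 at -0.59 and Asb13 at -0.50 (adjusted p = 0.163, 0.12 and 0.163 by limma). The median over all genes was -0.11 as deposited and -0.00 with median ratio rescaling, a shift of the whole comparison.

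By day, the ratios of means ran as follows. Asb11 with follistatin stood at 1.01, 0.593 and 0.378 of the control mean at days 3, 7 and 14, and Asb15 at 0.624, 0.315 and 0.275. Asb14 stood at 0.875, 0.594 and 0.544, Asb13 at 0.998, 0.709 and 0.628, and Asb10 at 0.952, 0.766 and 0.59. Asb4 stood at 1.12, 0.628 and 0.618, and Asb16 at 0.861, 0.848 and 0.533. Each of these 7 was lowest at day 14, where 1 control library carries the ratio. Asb12 stood at 1.23, 1.21 and 1.26, and Asb8 at 1.06, 1.04 and 1.10. Asb5 had no steady course, at 1.38, 0.994 and 1.20.

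Whether the day 3 and chronic sets were scaled together is not stated, so their controls are given side by side without a test. Asb15 averaged 15.7 ± 1.28 FPKM in chronic controls and 25.1 ± 1.92 FPKM in those of day 3 (SD, n = 3 each). Asb12 averaged 41.5 ± 1.08 FPKM in chronic controls and 30.6 ± 2.06 FPKM in those of day 3. Asb4 averaged 7.43 ± 0.225 FPKM in chronic controls and 4.87 ± 0.707 FPKM in those of day 3.

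The order of levels differed with follistatin in the chronic set. Asb5 stayed first (195 ± 40.9 FPKM, n = 4), followed by Asb8 (65.5 ± 4.60) and Asb12 (51.7 ± 2.83). Asb14 (42.0 ± 2.78), Asb11 (36.3 ± 7.69) and Asb10 (30.8 ± 2.78) came next, each overlapping with its neighbour among these 3. Asb16 (16.9 ± 5.15) and Asb13 (7.26 ± 0.710) stood lower, and Asb15 (4.70 ± 1.27) and Asb4 (4.67 ± 0.364) overlapped at the end. In chronic controls Asb11 (74.1 ± 9.12, n = 3) and Asb14 (72.8 ± 4.94) stood above Asb8 (62.1 ± 4.40) and Asb12 (41.5 ± 1.08 FPKM).

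**Figure D3:**
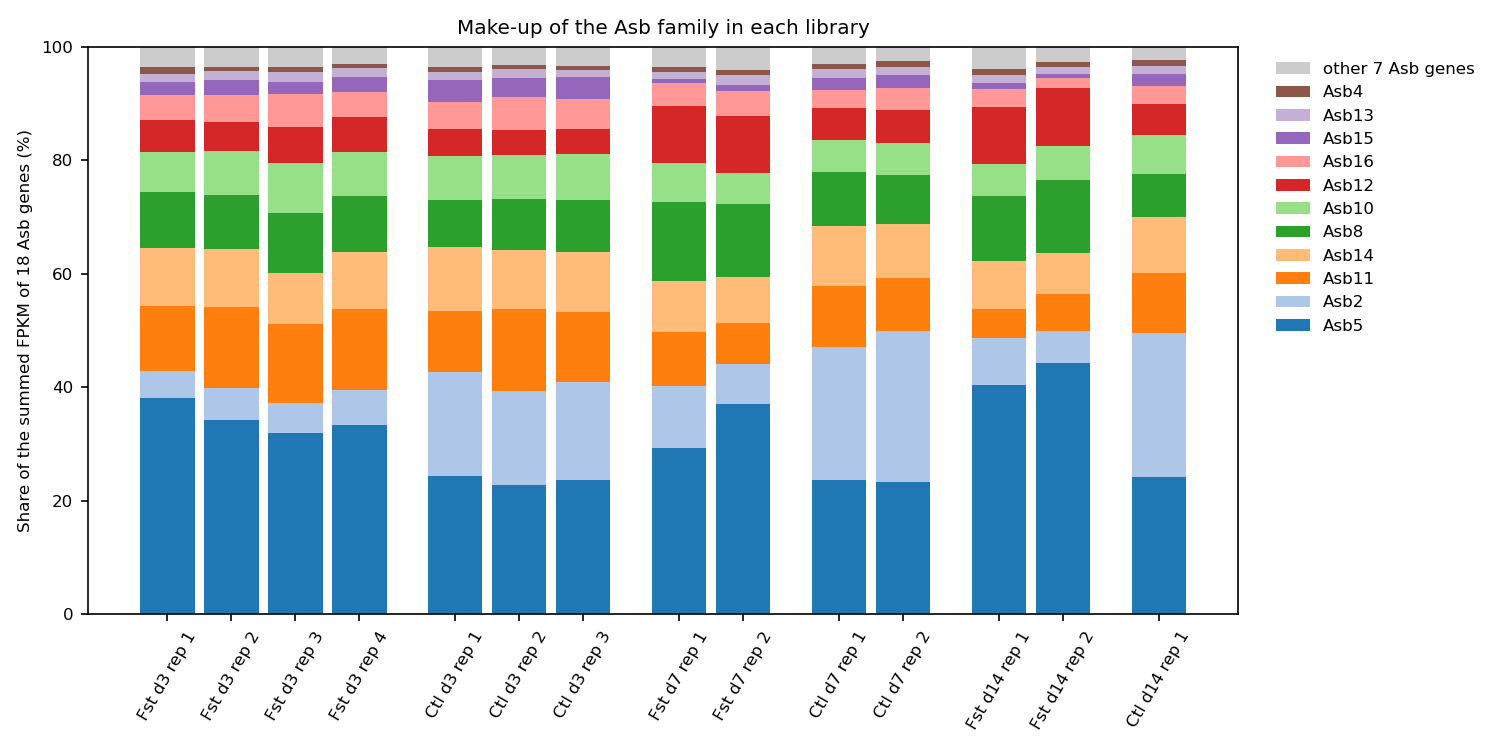
Share of each gene in the summed FPKM of all 18 Asb genes (y axis, %), 1 stacked bar per library, follistatin left of control within each day. The Asb5 share (dark blue, bottom) averages 34.4% with follistatin and 23.6% in controls at day 3, and 37.8% with follistatin and 23.7% in controls of the chronic set; the Asb2 share (light blue) is smaller with follistatin.

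Asb5 made up a larger part of the family's RNA with follistatin, given here as a description. Its share of the summed FPKM of all 18 Asb genes was 34.4% ± 2.60 with follistatin (n = 4) and 23.6% ± 0.772 in controls (n = 3) at day 3. In the chronic set it was 37.8% ± 6.35 with follistatin and 23.7% ± 0.410 in controls. Asb2, which targets filamins, made up 5.49% ± 0.548 with follistatin and 17.3% ± 0.942 in controls at day 3, and 7.94% ± 2.24 with follistatin and 25.2% ± 1.61 in controls of the chronic set. These shares are parts of 1 sum, so a smaller part of Asb2 leaves larger parts to the others. Summed over the 10 genes without Asb2, the level was 587 ± 14.9 FPKM with follistatin and 540 ± 7.06 FPKM in controls at day 3, and 455 ± 32.0 FPKM with follistatin and 525 ± 33.4 FPKM in controls of the chronic set. The groups did not overlap in either set, but the highest chronic follistatin sum was 494 FPKM and the lowest chronic control sum 497 FPKM. At day 3 Asb5 alone stood at 222 ± 20.7 FPKM with follistatin and 161 ± 6.10 FPKM in controls. There 5 of the 10 genes had a log2 fold change above 0 and 5 below.

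Asb2 itself had log2 fold changes of -1.72 at day 3 and -2.18 in the chronic set (adjusted p = 0.00012 and 0.00266 by limma), larger in size than those of all 10 genes. Of the 8 Asb genes outside the 10, 6 could be tested, and Asb2 alone was called in either set. The other 5 (Asb1, Asb3, Asb6, Asb7 and Asb18) had log2 fold changes between -0.25 and 0.11 at day 3 and between -0.47 and 0.13 in the chronic set.

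Genes listed for the Cullin-5 ligase core and its regulators did not pass in either set. The list also held Cul2, Rbx1 and Ube2m, which serve other Cullin ligases. Of the 16 genes tested, limma called 0 at day 3 and 0 in the chronic set, with 3 and 2 at an unadjusted p under 0.05. Over all genes, 1711 of 11268 at day 3 and 3124 of 11047 in the chronic set had such an unadjusted p. The median log2 fold change of the 16 was 0.10 at day 3 and 0.02 in the chronic set. The smallest p at day 3 were those of Ube2f, an E2 enzyme for the ubiquitin-like protein Nedd8 (0.29, adjusted p = 0.219), and Nae1, part of the enzyme that activates Nedd8 (0.28, adjusted p = 0.271 by limma). In the chronic set they were those of Arih2, a ligase that works with Cullin-5 (-0.31, adjusted p = 0.104), and Ube2f (0.31, adjusted p = 0.166 by limma). Cul5, the gene of the scaffold, changed by 0.15 at day 3 (adjusted p = 0.447) and by -0.28 in the chronic set (adjusted p = 0.281 by limma). Its difference between the sets was -0.44 (adjusted p = 0.295 by limma).

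Of 21 tested genes for other SOCS box proteins and related substrate receptors, 0 were called at day 3 and 1 rose in the chronic set, with 4 and 5 at an unadjusted p under 0.05 by limma. The 1 was Spsb2, a SPRY domain receptor, at 5.46 ± 0.277 FPKM with follistatin (n = 4) and 1.71 ± 0.185 FPKM in chronic controls (n = 3). It changed by 1.25 on the log2 scale (SE 0.10, adjusted p = 0.00155 by limma), and the median of the list was 0.09 at day 3 and -0.17 in the chronic set. Next in order were Socs6 (0.37, adjusted p = 0.123) and Klhdc3 (-0.36, adjusted p = 0.221) at day 3 and Socs7 (-0.48, adjusted p = 0.0662 by limma) in the chronic set.

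Fibre type genes were counted because the muscle is made of fast and slow fibres. Of 10 slow fibre genes, Casq2, the calsequestrin of cardiac and slow muscle, alone rose at day 3 (0.94, adjusted p = 0.0373 by limma), followed by Myoz2 (0.47, adjusted p = 0.24). At day 3, 8 of the 10 were above 0, with a median of 0.40 and 2 at an unadjusted p under 0.05. Of 9 tested in the chronic set, Casq2 alone was called again (1.31, adjusted p = 0.0124 by limma), followed by Tnnc1 (-0.54, adjusted p = 0.171), with 3 of the 9 above 0, a median of -0.19 and 2 unadjusted. Of 12 tested fast fibre genes, limma called 0 at day 3 (1 at an unadjusted p under 0.05), with a median of -0.03, and Mylpf (0.26, adjusted p = 0.116) and Myh2 (-0.35, adjusted p = 0.481) had the smallest p. In the chronic set Myoz1 (0.04) was the 1 fast fibre gene that could be tested, because the rest were marked HIDATA. Of the 14, 8 were listed at 0 in every chronic follistatin library and 4 in every chronic control, so their sums were not compared.

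Denervation response genes change when a muscle loses its nerve, not all in the same direction. Of these, limma called 0 of 12 tested at day 3 (0 unadjusted, median 0.31) and 0 of 10 in the chronic set (4 unadjusted, median 0.06). Gadd45a came first in both sets, at 0.44 at day 3 (adjusted p = 0.348) and 1.84 in the chronic set (adjusted p = 0.0507 by limma). Next were Chrnb1, a subunit of the acetylcholine receptor, at day 3 (0.28, adjusted p = 0.391) and Myog, a myogenic transcription factor, in the chronic set (0.66, adjusted p = 0.066 by limma). Of the 4 unadjusted in the chronic set, Myod1 (-0.33, adjusted p = 0.0723) and Dach2 (-0.48, adjusted p = 0.149 by limma) were lower.

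Markers of endothelial, smooth muscle, Schwann, adipose and fibroblast cells mostly read lower with follistatin in the chronic set, beside the falling Asb genes. Over all genes of the chronic test, 3124 of 11047 had an unadjusted p under 0.05 by limma. Of 8 endothelial markers, 7 were below 0 and 1 fell by the test (Tek, -0.85, adjusted p = 0.041 by limma), with a median of -0.58 and 7 unadjusted. Their summed level was 83.4 to 130 FPKM with follistatin, against 146 to 197 FPKM in controls. All 8 smooth muscle and pericyte markers were below 0 (median -0.75, 0 called by limma, 5 unadjusted), with sums of 41.5 to 107 FPKM with follistatin, against 129 to 181 FPKM in controls. All 5 tested Schwann cell markers were below 0 (median -0.81, 0 called by limma, 4 unadjusted), with sums over the 8 listed of 20.5 to 37.1 FPKM with follistatin, against 43.1 to 95.5 FPKM in controls. All 5 tested adipocyte markers were below 0 (median -0.57, 0 called by limma, 1 unadjusted), with sums over the 8 listed of 219 to 389 FPKM with follistatin, against 393 to 492 FPKM in controls. Of 8 fibroblast markers 6 were below 0 (median -0.23, 0 called by limma, 0 unadjusted), with overlapping sums of 428 to 656 FPKM with follistatin, against 449 to 751 FPKM in controls. No listed marker was at 0 in all 14 libraries. The part of these cells in the falls of the Asb genes was not tested.

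All 7 tested macrophage markers were above 0 in the chronic set (median 0.45, 0 called by limma, 0 unadjusted), with overlapping sums over the 8 listed of 33.5 to 92.8 FPKM with follistatin, against 20.9 to 49.3 FPKM in controls. Of 6 satellite cell markers only 3 could be tested, with a median of 0.00 (2 above 0, 0 called by limma, 1 unadjusted). At day 3 limma called 0 markers of any list, and 1711 of all 11268 genes had an unadjusted p under 0.05. Medians were -0.20 for endothelial cells (3 unadjusted), -0.24 for smooth muscle (5 unadjusted), -0.22 for fibroblasts (3 unadjusted) and -0.35 for adipocytes (1 unadjusted). For macrophages (7 tested) the median was 0.01, for Schwann cells (5 tested) -0.07 and for satellite cells (4 tested) -0.19, with 0 unadjusted in each.

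For each called gene, the profiles most like it over the 14 libraries were sought among 10089 genes. Likeness was the root mean square difference of log2(FPKM + 1), after centring each gene within each set. Asb15 was nearest to Rps6ka5, a kinase gene (0.14), and to the transcription factor gene Tead1 (0.16). Tead1 averaged 14.8 ± 3.05 FPKM with follistatin and 39.8 ± 4.10 FPKM in chronic controls. Asb5 was nearest to Jph1 (0.08), which ties the surface membrane to the calcium store, and to the calcium sensor gene Stim2 (0.08).

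Asb14 was nearest to Zfp180 (0.09) and to the lysosomal cholesterol transporter gene Npc1 (0.09). Asb13 was nearest to the lysosomal protease gene Tpp1 (0.05) and to Narf (0.07). Asb11 was nearest to Tcea3, a transcription elongation factor gene (0.15), and to Pink1, a kinase gene of mitophagy (0.15). Pink1 averaged 162 ± 32.9 FPKM with follistatin and 341 ± 37.8 FPKM in chronic controls. Asb4 was nearest to Serpine2, a protease inhibitor gene (0.12), and to Arid4a (0.12). Since all profiles share the same libraries, likeness here is a description only.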

How the data were processed

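Per the submitters' processing notes, reads were aligned with TopHat to mm10 and quantified with Cuffdiff; versions, annotation and strand setting are not given in the sources used here. The authors deposited FPKM per gene and library, and 2 Cuffdiff tables whose log2 fold changes, test scores, p-values and q-values the authors computed. Of 24386 genes listed, 27 whose symbols had become dates were left out. So were the genes without an estimate, marked HIDATA: 4 in the first set and 31 in the other.

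Values were put on the scale of log2(FPKM + 1), and genes averaging under 1 FPKM in a set were dropped. Each set was fitted with limma 3.58.1 in R 4.3.3, with a mean-variance trend, two-sided, as follistatin minus control. Calls needed p under 0.05 after Benjamini-Hochberg adjustment over every gene in the fit. The added 1 shrinks the changes of low genes. No pair of libraries had over 90% identical values. Low values under 0.5 FPKM were compared for depth (tolerance 0.02 on the log2 scale). The pipeline was tested on simulated data with the spread of the day 3 controls, which does not cover the spread of the chronic libraries. Alternatives were another pseudocount (0.1), other filters, rescaling, other fits and leaving out each library.

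The 10 genes and all lists were chosen with earlier results of these data known. By rule, every one of the 10 is described, with the 2 most similar genes of each called one and the 2 smallest p of each list of pathway genes. Cul5, Myod1 and Dach2 are named beyond this rule. Positions are from GENCODE M21, and promoters are from RefSeq (GRCm38.p6), which held all 10 genes. Proteins were not compared here.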

Additional observations from a re-analysis of the deposited data

How the results depend on the processing

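Of 180 values of the 10 genes at day 3 under alternatives, 160 kept direction and side of the threshold, as did 171 of 200 in the chronic set and 236 of 250 for the difference between the sets. The count called at day 3, 2, was 1 without a filter on low values, with quantile normalization, with all 14 libraries in 1 fit or at 1.5-fold or more, and 0 to 2 with 1 library left out. The chronic count, 5, was 3 at 1.5-fold or more, 0 for day 7 alone, and 1 to 5 with 1 library left out. The count of differences between the sets, 0, was 0 to 1 with 1 library left out. Same-numbered libraries did not deviate together (r of -0.056 to -0.033 across genes at day 3 and 0.014 at day 7), and 0 of 6 day 3 libraries correlated best with their own number. With a replicate block, which uses 3 pairs a set, the counts were 0 at day 3 (Asb15 0.131 and Asb5 0.175, adjusted p by limma) and 0 for the difference. The chronic count was 2: Asb15 (0.029) and Asb14 (0.0497) were called, and Asb4 (0.0761), Asb11 (0.083) and Asb13 (0.127) were not.

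Some values close to 0 turned round, and the cause was not tested. Asb11 at day 3 was -0.020 with the replicate block and -0.083 to 0.12 with 1 library left out, and Asb13 at day 3 was -0.052 to 0.033 with 1 left out. Asb5 in the chronic set was -0.020 for day 7 alone. For the difference between the sets, Asb8 was 0.12 with median ratio rescaling, 0.041 with quantile normalization and -0.044 to 0.049 with 1 library left out. Asb12 was -0.012 for day 7 alone and -0.043 to 0.069 with 1 library left out.

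Over all genes, 168 were called at day 3, against 266 without small RNA genes, 19 with the replicate block, 100 at 1.5-fold or more and 39 to 165 with 1 library left out. In the chronic set 608 were called, against 284 without a filter, 963 without small RNA genes, 2122 in 1 fit, 164 with the block, 30 for day 7 alone and 43 to 907 with 1 library left out. For the difference 8 were called, against 2 without a filter, 5 with median ratio rescaling, 23 with HIDATA genes kept, 0 with the block, 2 for day 7 alone and 1 to 33 with 1 library left out. Read numbers are unknown, so no counting error can be given.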

Other observations

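Asb17, a family member transcribed mainly in testis, was too low to be tested and is named after its values were seen. It was listed at 0.322 and 0.370 FPKM with follistatin at day 7 and 0.379 and 0.257 FPKM at day 14, against 0.102 and 0 FPKM in controls of day 7 and 0.0540 FPKM in that of day 14. All 4 follistatin libraries lay above the 3 controls. At day 3 it was listed at 0.185 FPKM in follistatin replicate 1 and at 0 in the other 6 libraries. At such levels a value rests on few reads.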
